A study of Bos taurus with 8 samples.

Results

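The genes described here are 33 genes of the enteric nervous system, 28 that mark neurons and 5 that mark glia, measured by RNA-seq in the jejunum of Holstein bull calves. They were taken by symbol from a list of neuronal and glial genes, which was chosen with earlier results of these data known. All 33 were found among the 17932 genes of the table. Values in TPM (the share of a library's transcripts that a gene takes, corrected for transcript length and scaled to a common total) were summed over the transcripts of each gene. The 4 control calves (CON) received milk replacer without the additive, and the 4 treated calves (DCLI) received 1 g/d of the postbiotic LIC37, a preparation of dead Lactobacillus ingluviei cells. Both groups were offered starter from day 33, had their milk replacer cut to 50% on day 82, were weaned by day 89 and were sampled on day 90. One library was made for each of the 8 calves. Every SD therefore holds differences between animals together with those between tissue pieces and libraries, which cannot be told apart. The libraries are called CON1 to CON4 and DCLI1 to DCLI4.

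The enteric nervous system is the network of neurons and glia inside the gut wall. Its myenteric plexus lies between the muscle layers and drives motility, whereas its submucosal plexus lies under the mucosa and acts on secretion and blood flow. Both derive from neural crest cells, which need the receptor RET and its co-receptor GFRA1 to colonise the gut. Excitatory neurons use acetylcholine and tachykinins, and inhibitory neurons use vasoactive intestinal peptide and nitric oxide.

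A library held 12825 to 13552 genes at or above 1 TPM. One label names liver as the source, but the liver gene ALB stayed at or below 1.07 TPM. VIL1, which encodes the villin of the intestinal brush border, reached 117 to 1274 TPM. Among the other liver genes listed, APOA2 and FGB stayed at or below 1.78 TPM and SERPINA1 at or below 8.47 TPM. TTR was 53.8 TPM in CON4 and at most 1.41 TPM elsewhere, and the source of its transcripts was not tested. CON4 stood apart from the other libraries. Its correlation with them on the log2 scale across all genes was 0.853 to 0.885, against 0.945 to 0.984 for the other pairs. Genes of B cells summed to 3369 TPM in CON4 and to 18.2 to 39.2 TPM elsewhere, and 10 enterocyte genes summed to 981 TPM in CON4 and to 8948 to 38761 TPM elsewhere.

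Mean levels ran from 0.01 TPM for DBH to 127 TPM for ERBB3. Of the 33 genes, 6 had a mean of at least 10 TPM over the 8 libraries (UCHL1, STMN2, VIP, TAC1, S100B and ERBB3), 16 had a mean between 1 and 10 TPM, and 11 had a mean below 1 TPM. The last class held genes of defined neuron types, such as CHAT, SLC18A3, NOS1, NPY and CALB2, and the glial genes GFAP and CDH19. DBH, which makes noradrenaline and marks sympathetic fibres, was listed at 0.04 TPM in CON3 and DCLI4 and at 0 in the other 6 libraries. At such levels a TPM rests on few reads, and the deposited values keep no depth from which an interval could be computed.

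**Figure D1:**
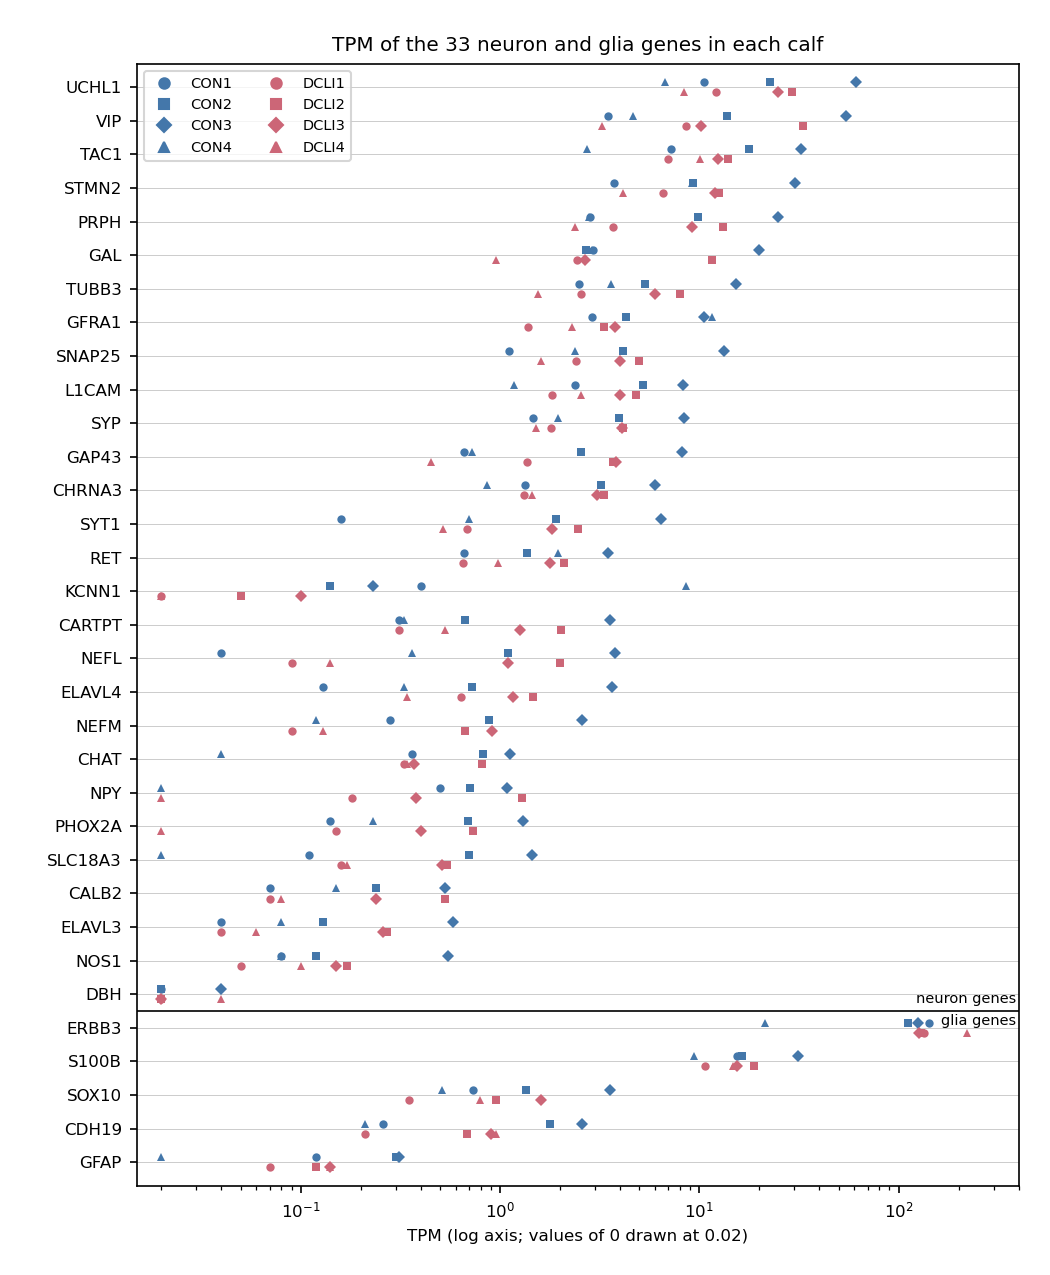
TPM of each of the 33 genes (log axis) in the 4 CON calves (blue) and the 4 DCLI calves (red), with a marker shape for each replicate number, which names a library and pairs no animals. CON3 (blue diamond) is the highest library for 23 of 28 neuron genes and 4 of 5 glia genes, and most genes show overlapping groups.

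The 28 neuron genes together were lower in DCLI than in CON on average, but the direction turned without 1 control calf. Their summed TPM was 46.4, 115, 324 and 64.3 in CON1 to CON4 and 56.5, 161, 110 and 44.0 in DCLI1 to DCLI4, which gives 137 ± 128 in CON and 93.0 ± 53.8 in DCLI (SD, n = 4 each). CON3 held 324 TPM, above every other library, and the remaining 3 CON calves lay within the range of the DCLI calves. The log2 ratio of the group means was -0.56 with all calves and 0.31 without CON3, whose removal brings the CON mean to 75.1 TPM. In bulk tissue, fewer neurons and less RNA per neuron cannot be told apart.

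Gene by gene, the mean TPM was higher in CON for 27 of the 28 neuron genes and equal for DBH. The comparison was tested with limma on log2(TPM + 1), where 18 of the 33 genes (16 neuronal, 2 glial) passed the filter of at least 1 TPM in at least 4 libraries. A gene was called at a Benjamini-Hochberg adjusted p under 0.05 if its log2 fold change was also at least 1 in size. None of the 18 was called, and neither was any of the 13228 genes tested (0% called by limma, 937 genes at an unadjusted p under 0.05). The 15 members under the filter were read from an unfiltered fit. Over all 28 neuron genes, 26 then had a log2 fold change below 0, with a median of -0.14. Of all 17932 genes, 58.8% were below 0 in the unfiltered fit, compared with 56.5% of the tested genes, whose median was -0.06. The 28 genes vary together across the same calves, so their common sign is not 28 separate observations. Without CON3 only GFRA1, KCNN1 and PHOX2A stayed below 0, the median of the 28 became 0.15, and 52.9% of all genes were below 0.

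**Figure D2:**
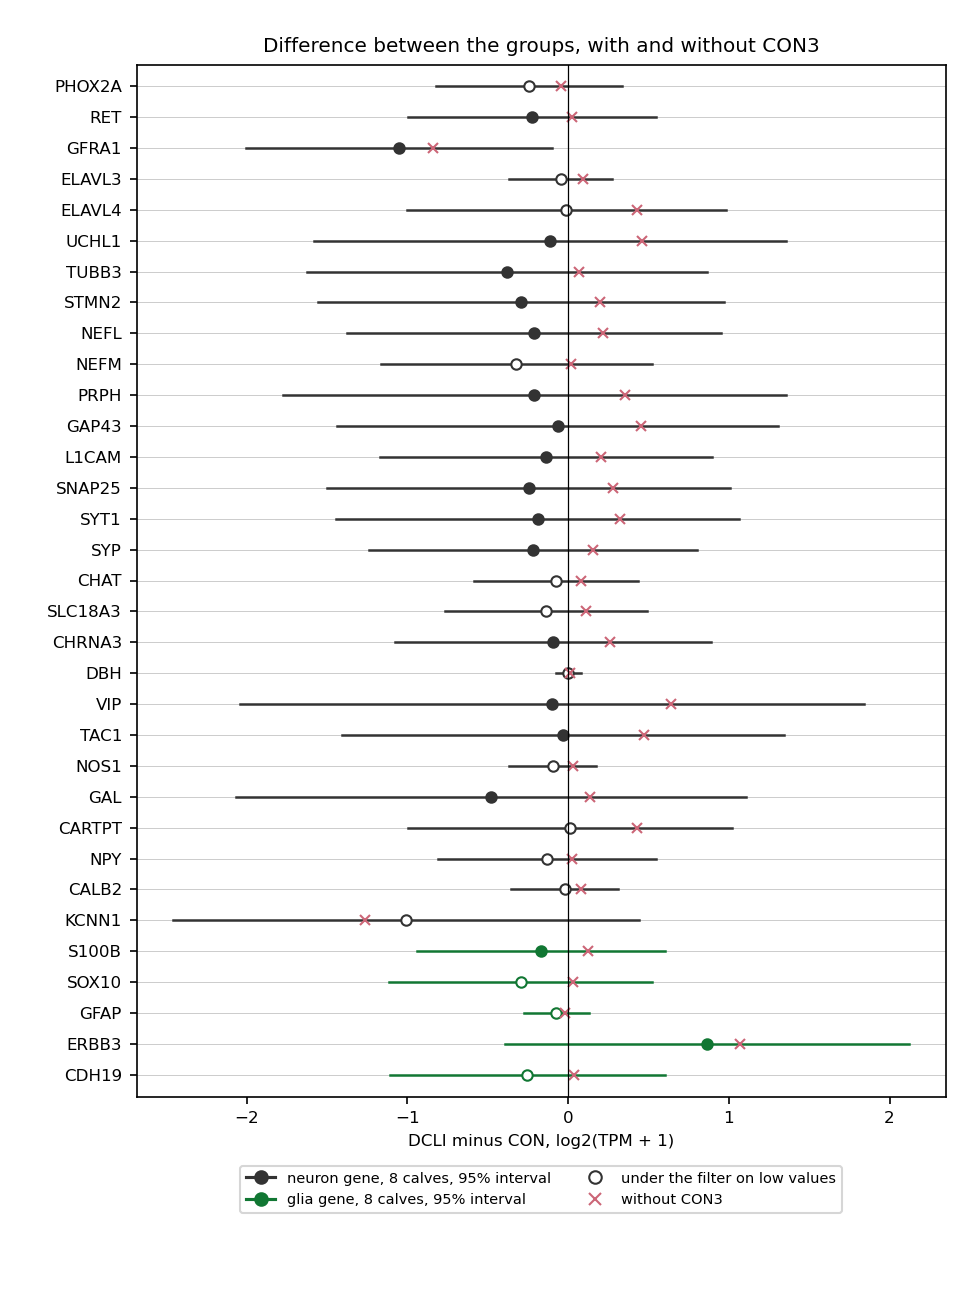
Log2 fold change of DCLI against CON on the log2(TPM + 1) scale for each gene, with its 95% interval from limma (points, filled for the 18 genes that passed the filter, n = 4 calves per group) and the value without CON3 (crosses). The interval leaves out 0 only for GFRA1, and the crosses of 25 of 28 neuron genes lie above 0.

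The genes of neuronal identity and survival were PHOX2A, RET, GFRA1, ELAVL3, ELAVL4 and UCHL1. UCHL1, a ubiquitin hydrolase that fills neuronal cell bodies, was the most abundant of the neuron genes, with 10.6, 22.6, 61.4 and 6.70 TPM in CON1 to CON4 and 12.1, 29.4, 24.7 and 8.42 TPM in DCLI1 to DCLI4. CON3 was highest and DCLI2 and DCLI3 came next, whereas CON4 and DCLI4 were lowest, and the groups overlapped. For UCHL1 the log2 fold change was -0.11 ± 0.65 (SE, adjusted p = 0.962), and it was 0.46 without CON3.

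GFRA1, the co-receptor that binds the neurotrophic factor GDNF, was the only 1 of the 33 genes with an unadjusted p under 0.05 from limma. Of all tested genes, 2.99% passed that level lower in DCLI and 4.09% higher, and 6.53% of the unfiltered genes passed it in either direction. It measured 2.89, 4.29, 10.5 and 11.6 TPM in CON1 to CON4 and 1.38, 3.33, 3.77 and 2.29 TPM in DCLI1 to DCLI4. CON3 and CON4 were both high, and CON1 lay among the DCLI calves. The log2 fold change was -1.05 ± 0.42 (SE, 95% interval -2.01 to -0.099), with an unadjusted p of 0.0341 and an adjusted p of 0.696 from limma, and the 2-sided exact permutation p over the 70 assignments of the calves was 0.0857. Leaving out 1 calf at a time gave -1.36 to -0.80, the weakest without CON4. Each of these fits keeps CON3 or CON4, so they do not show how the difference fares without both. CON1 and CON2, the remaining CON calves, had 2.89 and 4.29 TPM, against 1.38 to 3.77 TPM in the DCLI calves. CON4, the higher of the 2 libraries that carry the difference, is also the library rich in B cell genes, and the part of those cells in its GFRA1 level was not tested. The signalling receptor RET, with which GFRA1 acts, measured 0.66, 1.37, 3.48 and 1.96 TPM in CON1 to CON4 and 0.65, 2.10, 1.78 and 0.98 TPM in DCLI1 to DCLI4. The ratio of GFRA1 to RET was 3.03 to 5.93 in CON and 1.59 to 2.34 in DCLI, and so did not overlap, but this ratio was singled out after its values were seen and is given with no test. The log2 fold change of RET alone was -0.22 ± 0.34 (SE, adjusted p = 0.854).

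PHOX2A, a transcription factor of autonomic neurons, stayed at or below 1.31 TPM and was listed at 0 in DCLI4. The RNA-binding proteins ELAVL3 and ELAVL4, which stabilise neuronal transcripts, reached 0.58 and 3.67 TPM at most, both in CON3. For ELAVL4, CON3 stood at 3.67 TPM and the next CON library at 0.72 TPM, while the DCLI calves ranged from 0.34 to 1.47 TPM. The groups overlapped in all 3 genes.

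Among the genes of the axon and cytoskeleton, STMN2, a regulator of microtubules in growing axons, was the most abundant, with 3.72, 9.27, 30.2 and 9.25 TPM in CON1 to CON4 and 6.61, 12.5, 12.03 and 4.12 TPM in DCLI1 to DCLI4. CON3 was highest, and CON2 and CON4 lay between the 2 lower and the 2 higher DCLI calves. TUBB3, the neuronal tubulin, measured 2.50, 5.34, 15.3 and 3.59 TPM in CON1 to CON4 and 2.56, 8.03, 6.03 and 1.55 TPM in DCLI1 to DCLI4, and PRPH, the peripheral neurofilament protein peripherin, measured 2.83, 9.90, 24.9 and 2.79 TPM in CON1 to CON4 and 3.71, 13.1, 9.19 and 2.39 TPM in DCLI1 to DCLI4. In both genes CON3 was highest and DCLI2 second, and the other CON calves lay within the DCLI range. For STMN2, TUBB3 and PRPH the log2 fold changes were -0.29, -0.38 and -0.21, and without CON3 they were 0.20, 0.069 and 0.36. The neurofilaments NEFL and NEFM reached 3.78 and 2.57 TPM in CON3 and stayed at or below 2.01 and 0.91 TPM in the DCLI calves. GAP43, found in growing axon tips, ranged from 0.45 TPM in DCLI4 to 8.16 TPM in CON3. The adhesion molecule L1CAM ranged from 1.17 TPM in CON4 to 8.30 TPM in CON3.

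The vesicle release genes followed the same calves. SNAP25, which drives the fusion of synaptic vesicles, measured 1.11, 4.16, 13.3 and 2.37 TPM in CON1 to CON4 and 2.42, 4.98, 3.99 and 1.60 TPM in DCLI1 to DCLI4. SYP, a membrane protein of synaptic vesicles, measured 1.46, 3.95, 8.37 and 1.95 TPM in CON1 to CON4 and 1.80, 4.14, 4.08 and 1.51 TPM in DCLI1 to DCLI4. SYT1, the calcium sensor of release, measured 0.16, 1.90, 6.41 and 0.70 TPM in CON1 to CON4 and 0.68, 2.46, 1.83 and 0.52 TPM in DCLI1 to DCLI4. In all 3 genes CON3 was highest, CON1 lowest and DCLI2 the highest DCLI calf. Their log2 fold changes were -0.25, -0.22 and -0.19, each with an adjusted p of at least 0.85 from limma, and each was above 0 without CON3. Enteroendocrine cells also use this release machinery. Their 12 listed genes summed to 203, 484, 399 and 74.8 TPM in CON1 to CON4 and to 180, 240, 282 and 383 TPM in DCLI1 to DCLI4. The part of these cells in the 3 genes was not tested.

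Cholinergic genes were scarce. CHAT, the enzyme that makes acetylcholine, measured 0.36, 0.82, 1.12 and 0.04 TPM in CON1 to CON4 and 0.33, 0.81, 0.37 and 0.34 TPM in DCLI1 to DCLI4. SLC18A3, which loads acetylcholine into vesicles, was at most 1.45 TPM and was listed at 0 in CON4. CHRNA3, a subunit of the nicotinic receptor by which enteric neurons receive acetylcholine, was more abundant, with 1.34, 3.20, 6.03 and 0.86 TPM in CON1 to CON4 and 1.32, 3.32, 3.07 and 1.44 TPM in DCLI1 to DCLI4. CON3 was highest in all 3 genes, and CON4 was lowest in all 3. CHRNA3 had a log2 fold change of -0.092 ± 0.43 (SE), and leaving out 1 calf moved it between -0.38 and 0.26.

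Peptide genes included VIP and TAC1, 2 of the most abundant neuron genes. VIP, the peptide of inhibitory motor and secretomotor neurons, measured 3.49, 13.7, 54.6 and 4.63 TPM in CON1 to CON4 and 8.59, 33.3, 10.2 and 3.24 TPM in DCLI1 to DCLI4. CON3 and DCLI2 stood above the other 6 calves. TAC1, the precursor of substance P, measured 7.22, 17.7, 32.3 and 2.73 TPM in CON1 to CON4 and 6.94, 13.96, 12.4 and 10.1 TPM in DCLI1 to DCLI4, with CON3 highest, CON2 second and CON4 lowest. The log2 fold changes were -0.10 for VIP and -0.03 for TAC1, and they were 0.64 and 0.47 without CON3. The ratio of VIP to TAC1 ranged from 0.483 to 1.70 in CON and from 0.322 to 2.38 in DCLI, so the balance of the transcripts varied as much within a group as between groups. Enterochromaffin cells also express TAC1, and CHGA, their granule protein, measured 109, 216, 155 and 29.9 TPM in CON1 to CON4 and 103, 105, 135 and 201 TPM in DCLI1 to DCLI4. The part of these cells in the TAC1 level was not tested.

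GAL, which encodes the peptide galanin, showed 2 high calves, 1 in each group. It measured 2.92, 2.69, 19.9 and 2.88 TPM in CON1 to CON4 and 2.44, 11.6, 2.66 and 0.96 TPM in DCLI1 to DCLI4. CON3 and DCLI2 stood apart from 6 calves at or below 2.92 TPM, and the log2 fold change was -0.48 ± 0.70 (SE, adjusted p = 0.847) with all calves and 0.13 without CON3. CARTPT, another neuropeptide precursor, had the same 2 highest calves, CON3 at 3.57 TPM and DCLI2 at 2.02 TPM, and its log2 fold change was 0.01. NPY, found in secretomotor neurons, was the only neuron gene whose highest value was in a DCLI calf alone (1.29 TPM in DCLI2). NOS1, which makes nitric oxide in inhibitory neurons, did not exceed 0.55 TPM, and the calcium-binding protein CALB2 was highest at 0.53 TPM in both CON3 and DCLI2.

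KCNN1, a small-conductance calcium-activated potassium channel, did not follow the other neuron genes. It measured 0.40, 0.14, 0.23 and 8.63 TPM in CON1 to CON4 and 0, 0.05, 0.10 and 0 TPM in DCLI1 to DCLI4. Every CON library was above every DCLI library, which held for no other of the 33 genes and, with no filter, for 2.66% of all genes in this direction. Among tested genes the groups were apart for 3.11% lower and 2.28% higher in DCLI. The gap between the lowest CON value (0.14 TPM) and the highest DCLI value (0.10 TPM) was small, and CON4 stood far above the next CON library at 0.40 TPM. The 2-sided exact permutation p was 0.0286, which is the smallest that 4 against 4 calves allow. The log2 fold change was -1.01 (95% interval -2.46 to 0.44, adjusted p = 0.786 from limma) and -0.27 without CON4. With a pseudocount of 0.1 in place of 1 it was -2.54. In CON4 the level came from 2 transcripts at 3.98 and 4.65 TPM, and the second of them was listed at 0 in the other 7 libraries. KCNN1 is among the genes that the study itself called on these libraries, so its direction is not independent evidence. CON4 was also the library with 3369 TPM of B cell genes, and whether its KCNN1 transcripts come from neurons was not tested.

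Of the glia genes, S100B, a calcium-binding protein of enteric glia, measured 15.5, 16.3, 31.4 and 9.38 TPM in CON1 to CON4 and 10.7, 18.9, 15.5 and 14.7 TPM in DCLI1 to DCLI4. CON3 was highest and CON4 lowest, with all DCLI calves between them. The log2 fold change was -0.17 ± 0.34 (SE, adjusted p = 0.887), and it was 0.12 without CON3. SOX10, the transcription factor of neural crest and glia, measured 0.73, 1.35, 3.55 and 0.51 TPM in CON1 to CON4 and 0.35, 0.95, 1.61 and 0.79 TPM in DCLI1 to DCLI4, and CDH19, a cadherin of the same lineage, measured 0.26, 1.79, 2.59 and 0.21 TPM in CON1 to CON4 and 0.21, 0.68, 0.90 and 0.96 TPM in DCLI1 to DCLI4. Both were highest in CON3, and the DCLI values of both lay inside the CON range, apart from SOX10 in DCLI1. GFAP, the filament protein of reactive glia, was at most 0.31 TPM. The 5 glia genes had a median log2 fold change of -0.17, with 4 of 5 below 0. Without CON3 the median was 0.034 and 1 of 5 was below 0.

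ERBB3, the receptor through which neuregulin acts on glial precursors, went the other way. It measured 143, 112, 125 and 21.4 TPM in CON1 to CON4 and 135, 129, 127 and 220 TPM in DCLI1 to DCLI4. CON4 was far below the other libraries and DCLI4 above them, and the remaining 6 calves lay between 112 and 143 TPM. The log2 fold change was 0.86 ± 0.56 (SE, adjusted p = 0.742 from limma) and 0.24 without CON4. ERBB3 is also made by the gut epithelium, and ERBB2, its partner, followed it with 98.4, 69.8, 76.2 and 19.9 TPM in CON1 to CON4 and 72.6, 85.1, 73.0 and 109 TPM in DCLI1 to DCLI4. The enterocyte sum was 11123, 30104, 8948 and 981 TPM in CON1 to CON4 and 23209, 38761, 26146 and 29536 TPM in DCLI1 to DCLI4. It was lowest in CON4 as well, and CON2 lay within the DCLI range. CON1 and CON3 lay below that range, with ERBB3 at 143 and 125 TPM. The sum was highest in DCLI2, whereas ERBB3 was highest in DCLI4. The part of the epithelium in the ERBB3 level was not tested. Because ERBB3 held most of the glial sum, the 5 genes summed to 121 ± 61.4 TPM in CON and 170 ± 44.7 TPM in DCLI (SD, n = 4 each), whereas the other 4 genes summed to 21.1 ± 11.9 TPM and 16.7 ± 3.97 TPM. The sums of those 4 genes were 16.6, 19.8, 37.8 and 10.1 TPM in CON1 to CON4 and 11.3, 20.7, 18.1 and 16.6 TPM in DCLI1 to DCLI4, again with CON3 highest.

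The order of the calves was shared by most of the neuron genes. CON3 was highest for 23 of 28 neuron genes, and for 15 of the 16 that passed the filter, whereas it was highest for 19.1% of all genes tested. It shared the highest value for DBH and CALB2, and GFRA1 and KCNN1 were highest in CON4. Within the DCLI group, DCLI2 was highest for 23 of 28 neuron genes, and for 14 of the 16 that passed the filter, compared with 35.5% of all genes tested. CON3 exceeded DCLI1 and DCLI3 in 28 of 28 neuron genes each, and CON2 exceeded CON1 in 25.

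**Figure D3:**
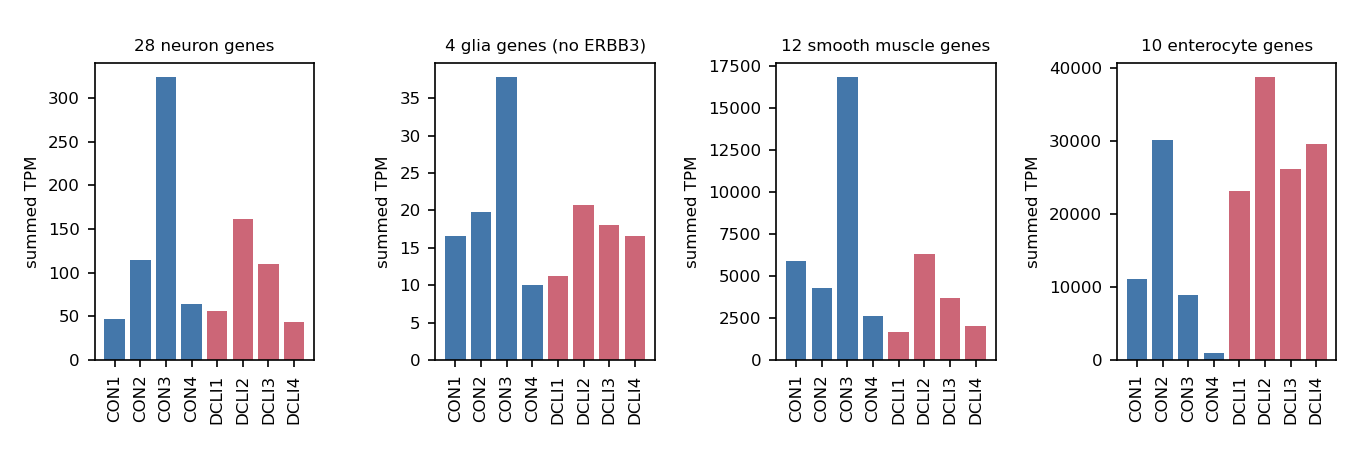
Summed TPM per library for the neuron genes, the glia genes without ERBB3, the 12 smooth muscle genes and the 10 enterocyte genes, with CON in blue and DCLI in red and a bar for each calf (each axis starts at 0). CON3 is highest for neuron genes (324 TPM), for the 4 glia genes (37.8 TPM) and for smooth muscle genes (16859 TPM).

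The smooth muscle genes of the gut wall shared their highest calves with the neuron genes. The 12 smooth muscle genes summed to 5909, 4272, 16859 and 2595 TPM in CON1 to CON4 and to 1656, 6305, 3695 and 2020 TPM in DCLI1 to DCLI4. CON3 was highest for 12 of 12 of them and DCLI2 was the highest DCLI calf for 11 of 12, the same 2 calves as for the neuron genes. CON1 did not follow, with a muscle sum above that of CON2 but a neuron sum below it (46.4 against 115 TPM). Without CON3 the mean muscle sum was 4259 TPM in CON and 3419 TPM in DCLI. The neuron sums then had the opposite order, with 75.1 TPM in CON and 93.0 TPM in DCLI. With all calves, all 12 muscle genes had a log2 fold change below 0 (median -0.96) and none was called. The 5 genes of interstitial cells of Cajal, the pacemaker cells beside the myenteric plexus, summed to 52.4 TPM in CON3 and to 21.2 to 33.1 TPM elsewhere. How much of the neuronal difference follows the amount of muscle wall in each piece of tissue was not tested.

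Divided by the smooth muscle sum of the same library, the neuron sum came to 0.785%, 2.69%, 1.92% and 2.48% in CON1 to CON4 and 3.41%, 2.56%, 2.99% and 2.18% in DCLI1 to DCLI4. CON3 was no longer the highest library on this scale, and the means of 1.97% ± 0.852 in CON and 2.78% ± 0.533 in DCLI (SD, n = 4 each) stood in the opposite order to those of the TPM sums. CON1 was the lowest, and the groups overlapped.

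**Figure D4:**
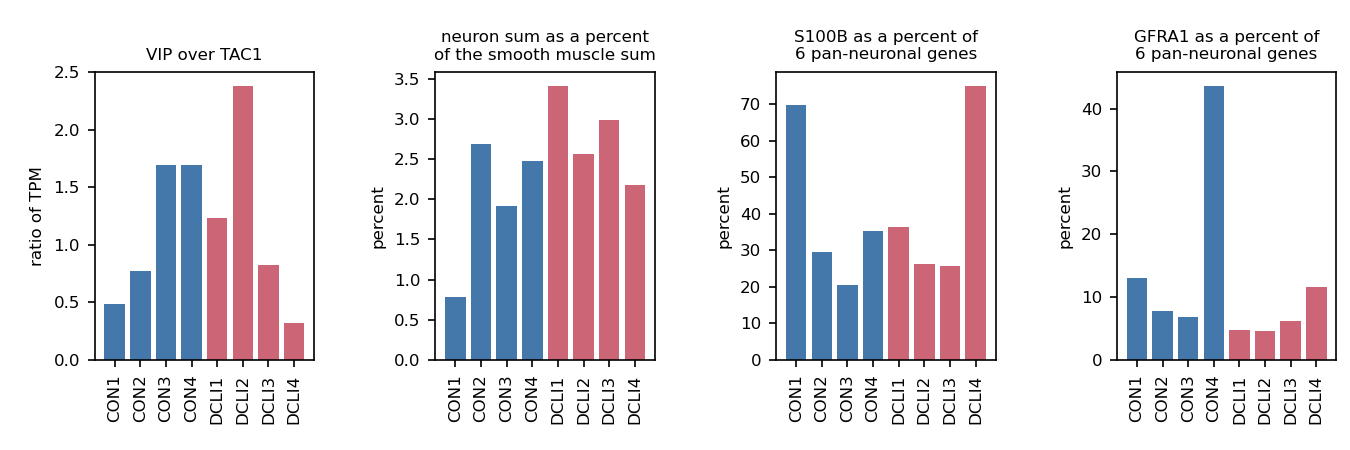
Ratios within each library for the 4 CON calves (blue) and the 4 DCLI calves (red), with a bar for each calf, the ratio named above each panel and axes that start at 0. CON4 has the highest ratio of GFRA1 to the 6 genes (43.6%), and CON1 and DCLI4 have the highest ratios of S100B to them. The groups overlap for the ratio of the neuron sum to the smooth muscle sum (0.785% to 2.69% in CON, 2.18% to 3.41% in DCLI) and for VIP over TAC1.

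To compare neuron genes at a like neuronal content, each was set against the sum of 6 genes found in most neurons (UCHL1, TUBB3, STMN2, SYP, SNAP25 and PRPH). That sum was 22.2, 55.2, 153 and 26.7 TPM in CON1 to CON4 and 29.2, 72.1, 60.0 and 19.6 TPM in DCLI1 to DCLI4. UCHL1 took 40.7% to 43.0% of it in the DCLI calves and from 25.1% (CON4) to 47.6% (CON1) in the CON calves. PRPH took 12.2% to 18.2% in DCLI and 10.5% to 17.9% in CON, and SYP 5.74% to 7.71% and 5.46% to 7.32%. GFRA1, which is not in the sum, equalled 43.6% of it in CON4, at 6.87% to 13.02% in the other CON calves and at 4.62% to 11.7% in the DCLI calves, so CON3, high in TPM, was not high by this measure. VIP equalled 46.1% of the sum in DCLI2, 35.6% in CON3 and 15.7% to 29.4% in the other calves. TAC1 was 51.4% in DCLI4 and 10.2% in CON4, and S100B was 69.9% in CON1 and 75.1% in DCLI4 but 20.5% to 36.5% in the rest. The S100B ratio was thus highest in CON1 and DCLI4, the libraries with the smallest neuronal sums and so the smallest divisor. SOX10 was also highest there (3.29% in CON1, 4.03% in DCLI4). CDH19 was 4.90% in DCLI4 but 1.17% in CON1, below CON2 (3.24%).

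The table lists 66 transcripts for the 33 genes, 1 for 18 genes and several for 15. UCHL1 came to 99.9% from a single transcript and VIP to 93.2%. The 2 transcripts of SNAP25 took 59.4% and 40.7% of its mean TPM, and the first took 58.8% in CON and 60.3% in DCLI. PRPH was divided into 71.99% and 28.01%. For NEFM the leading transcript took 67.0% of the CON level and 12.8% of the DCLI level, but the gene was under 1 TPM in all libraries except CON3, where this transcript reached 1.89 TPM.

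Lists of other genes of the enteric nervous system were read in the same way, and no gene in any of them was called by limma. Of the 18 genes of enteric development and neurotrophic signalling, 12 were tested, with 5 higher and 7 lower in DCLI and a median log2 fold change of -0.07. HAND2, a transcription factor of enteric neurons that smooth muscle also expresses, was 30.1 TPM in CON3 and 1.10 to 5.58 TPM in the other 7 libraries. Of 18 vesicle release genes 9 were tested, 8 of them lower (against 56.5% of all tested genes), with a median of -0.33. VAMP2, a fusion partner of SNAP25, was 28.8 to 47.3 TPM in CON and 27.3 to 32.2 TPM in DCLI. SYN2, a synapsin that tethers vesicles, was the exception, with 0.64 to 4.23 TPM in CON, 9.70 and 19.7 TPM in DCLI1 and DCLI2, and 3.16 and 2.40 TPM in DCLI3 and DCLI4 (log2 fold change 1.14, adjusted p = 0.718).

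Of 19 neuronal cytoskeleton and axon genes 15 were tested, 13 of them lower in DCLI (against 56.5% of all tested genes), with a median log2 fold change of -0.34. An unadjusted p under 0.05 with a lower level in DCLI was found for 3 of the 15 (against 2.99% of all tested genes), and the list as a whole was not tested. DPYSL3, which guides growing axons, measured 12.3, 16.8, 36.0 and 53.6 TPM in CON1 to CON4 and 5.19, 12.2, 11.4 and 6.66 TPM in DCLI1 to DCLI4, so that the groups did not overlap (as for 3.11% of tested genes, log2 fold change -1.49 ± 0.47, SE, adjusted p = 0.692). The tubulin TUBB2A (-0.79, adjusted p = 0.696 from limma) was highest in CON3, and its groups overlapped. THY1 (-1.74, adjusted p = 0.696 from limma), a surface protein of neurons that fibroblasts and lymphocytes also carry, was 110 TPM in CON4 and at most 18.2 TPM elsewhere. The other CON calves had 11.5 to 18.2 TPM of THY1 and the DCLI calves 4.19 to 10.1 TPM, so its groups did not overlap either. These genes are not confined to neurons. The 8 fibroblast and matrix genes were also all lower in DCLI (against 56.5% of all tested genes), with log2 fold changes from -1.13 to -0.063. Their summed levels were 553 to 1176 TPM in CON and 415 to 678 TPM in DCLI. The part of other cells in the axon genes was not tested.

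Of 18 peptide and transmitter genes outside the 28, 10 were tested, with 7 higher and 3 lower in DCLI on the log2 scale and a median log2 fold change of 0.20. Their summed TPM had the opposite order, with a mean of 403 ± 315 in CON and 311 ± 63.9 in DCLI (SD, n = 4 each). The most abundant were SST, NTS and GRP, which enteroendocrine cells or neurons express. CON4 was the lowest library for each of them, at 21.0, 1.59 and 0.63 TPM. How far CON4 sets the direction on the log2 scale was not tested. CALCB, a peptide of intrinsic sensory neurons, was 16.9 TPM in CON3, 0.70 to 4.80 TPM in the other CON calves and 3.31 to 12.4 TPM in the DCLI calves. Of 26 receptor and channel genes 12 were tested, with 5 higher and 7 lower and a median of -0.04. KCNN4, a potassium channel of epithelial and immune cells, was 13.7, 25.3, 11.5 and 5.60 TPM in CON1 to CON4 and 37.0, 26.4, 22.0 and 18.1 TPM in DCLI1 to DCLI4, with an unadjusted p of 0.0424 and an adjusted p of 0.696. Of 20 further glial and Schwann cell genes 9 were tested and 8 were lower (against 56.5% of all tested genes), with a median of -0.24. CON3 was highest for 14 of the 20, tested or not, compared with 19.1% of all genes tested, so these shares cover unlike sets of genes. PMP22, a myelin protein that other cells also make, measured 115, 113, 281 and 54.5 TPM in CON1 to CON4 and 38.4, 19.1, 45.3 and 86.6 TPM in DCLI1 to DCLI4, and overlapped through CON4 and DCLI4 (log2 fold change -1.50 ± 0.55, SE, adjusted p = 0.696).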

How the data were processed

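RNA from the jejunum of 8 calves was sequenced, 1 library per calf. The paper describes the tissue as jejunal epithelium, whereas the 12 smooth muscle genes summed to 1656 to 16859 TPM. The authors used SOAPnuke for read filtering, HISAT2 for alignment to ARS-UCD1.2 and RSEM for quantification, and the submitters' processing notes name DESeq2 1.4.5. The deposited TPM values, 1 per transcript and library, were made by the authors and were summed here from 50681 transcripts to 17932 gene IDs. Each library sums to between 999994 and 999999 TPM. The deposited table also holds estimated counts for 76 transcripts, whose values across libraries did not follow the TPM of their own rows (median r = -0.166, 0 of 76 above 0.95), so they were not used and no count model was fitted. A TPM keeps no depth, so no counting interval is given.

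DCLI was compared with CON by limma 3.58.1 in R 4.3.3 (lmFit, eBayes with trend) on log2(TPM + 1), without pairing, over 13228 genes that reached 1 TPM in 4 or more libraries. P-values were adjusted by Benjamini-Hochberg over all of these genes. The pseudocount of 1 shrinks the fold changes of low genes. Members under the filter were taken from the same fit with no filter. Single members were also compared with a 2-sided exact permutation test of the mean TPM over 70 assignments, computed for 33 members. The p-values of that test are not adjusted, and its smallest possible p is 0.0286. The limma step was tested on simulated data. Symbols of 33 of 33 members matched RefSeq genes of ARS-UCD2.0, which served for names only, and no sequence or coordinate was used here. Python 3.11.15 with numpy 2.4.6, pandas 2.3.3 and matplotlib 3.10.9 was used for sums and figures.

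The text names all 33 members, and from each other list of enteric genes some of the 3 most abundant tested genes and of the 3 with the smallest p, besides genes of other cell types. The ratio of GFRA1 to RET was singled out after its values were seen. The members and lists were chosen with earlier results of these data known. Where 36 symbols carried several gene IDs, the more abundant ID was used in the lists. The alternatives changed the pseudocount, the filter, the scaling, the variance model, the library weights and the use of the replicate number as a block, and left out single libraries. Groups were taken from the sample labels, and no library was left out of the main comparison.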

Additional observations from a re-analysis of the deposited data

Results flagged for a closer look

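In each gene and group of 4 calves, a library was singled out where its gap to the nearest other calf took up most of the range of the group (above Dixon's 95% critical value). This happened in 11 of 66 groups. Chance gives about 1 in 20 for independent, normally distributed values, but these are TPM of genes that vary together across the same calves, so the 11 cannot be read against that rate. In both groups of DBH 3 calves were listed at 0, where any value meets the criterion. Of the 11, 6 were CON3, 2 DCLI2, 2 DCLI4 and 1 CON4.

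CON3 was far above the other CON calves for GAL (19.92 TPM, next 2.92), ELAVL4 (3.67 TPM, next 0.72), CARTPT (3.57 TPM, next 0.67), ELAVL3 (0.58 TPM, next 0.13), NOS1 (0.55 TPM, next 0.12) and DBH (0.04 TPM, others listed at 0). DCLI2 was far above the other DCLI calves for GAL (11.63 TPM, next 2.66) and CHAT (0.81 TPM, next 0.37). CON4 stood at 8.63 TPM for KCNN1, next 0.40 TPM. DCLI4 stood at 219.84 TPM for ERBB3, next 134.88 TPM, and at 0.04 TPM for DBH, the others being listed at 0.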

How the results depend on the processing

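No member was called under any of the alternatives run. The count of called genes over the whole table, 0 in the main comparison, ranged from 0 to 9 when 1 calf was left out (9 without CON2, 1 without DCLI1). The number of neuron genes with a log2 fold change below 0 (26 of 28) ranged from 3 without CON3 to 28, their median from -0.38 to 0.15, and the log2 ratio of their sums from -0.97 to 0.31. The number of glia genes below 0 (4 of 5) ranged from 1 without CON3 to 4 and their median from -0.42 to 0.034. Leaving out 1 calf turned the sign of 27 members: RET (-0.45 to 0.023), ELAVL3 (-0.11 to 0.090), ELAVL4 (-0.25 to 0.43), UCHL1 (-0.55 to 0.46), TUBB3 (-0.67 to 0.069), STMN2 (-0.71 to 0.20), NEFL (-0.51 to 0.22), NEFM (-0.54 to 0.017), PRPH (-0.57 to 0.36), GAP43 (-0.37 to 0.46), L1CAM (-0.49 to 0.21), SNAP25 (-0.64 to 0.28), SYT1 (-0.57 to 0.32), SYP (-0.49 to 0.16), CHAT (-0.26 to 0.081), SLC18A3 (-0.32 to 0.11), CHRNA3 (-0.38 to 0.26), VIP (-0.64 to 0.64), TAC1 (-0.58 to 0.47), NOS1 (-0.14 to 0.030), GAL (-1.01 to 0.13), CARTPT (-0.21 to 0.43), NPY (-0.37 to 0.029), CALB2 (-0.13 to 0.080), S100B (-0.42 to 0.12), SOX10 (-0.50 to 0.032) and CDH19 (-0.49 to 0.034). All but CARTPT turned without CON3. PHOX2A, GFRA1, KCNN1, GFAP and ERBB3 kept their sign.

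A pseudocount of 0.1 turned ELAVL4 (0.27), CHAT (0.041), SLC18A3 (0.018) and TAC1 (0.018). Median-of-ratios scaling turned ELAVL4 (0.010) and TAC1 (0.00096), quantile normalisation turned ELAVL4 (0.068) and CALB2 (0.013), and CARTPT turned without ribosomal protein genes (-0.0067) and with array weights (-0.014). The cause was not tested. Leaving out CON3 and CON4 together, chosen after seeing the data, moved the median of all genes by 0.115 and left 9 of 28 neuron genes below 0. It turned RET (0.22), ELAVL3 (0.088), ELAVL4 (0.41), UCHL1 (0.092), TUBB3 (0.057), STMN2 (0.39), NEFL (0.18), PRPH (0.099), GAP43 (0.29), SNAP25 (0.29), SYT1 (0.29), SYP (0.077), CHRNA3 (0.011), VIP (0.46), NOS1 (0.022), GAL (0.14) and CALB2 (0.079). Without ERBB3, also chosen after seeing the data, the glial median was -0.21.

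The replicate number gave no pairing of calves. Same-numbered libraries deviated with r = 0.0507, -0.0383, -0.0298 and -0.198, and a fit with the number as a block called 0 genes, had 845 genes at an unadjusted p under 0.05 instead of 937, and kept 26 of 28 neuron genes below 0. With 4 calves per group and 1 calf setting the sign, a difference of the size seen in the neuron genes cannot be told from the spread between calves. Levels under 1 TPM, as for 11 members, rest on few reads.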
